A study of Mus musculus with 10 samples.

Results

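Pcdh10, Pcdhga1 and Fat4, which all encode cadherins, carried 4 of the 163 coding mutations listed for mouse proximal colon organoids, and they made up 3 of the 156 genes with a listed mutation. The 3 genes were chosen by their presence in the deposited mutation lists, so their counts, positions and p-values are a description and no test was run on them. All 4 mutations were missense, as were 151 of the 163 listed. Pcdh10 was hit in a culture with active BrafV600E and in a long-term culture without it, at positions 65 bp apart. Pcdhga1 and Fat4 were hit in the same long-term culture. The presence of cadherin mutations in both kinds of culture therefore rested on Pcdh10 alone.

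Organoids, which are crypt cells grown as 3-dimensional structures in Matrigel, were made from the proximal colon of male C57BL/6 mice of about 40 days. The mice were heterozygous for a BrafV600E allele that stays silent until Cre acts on it. In the BrafV600E cultures, lentiviral Cre had activated the allele. Empty-vector cultures had received the lentiviral backbone without Cre. Mutation lists were given for 3 BrafV600E cultures, numbered 1 to 3, after 5 months in culture and 3 weeks in Base medium, which lacks the stem-cell niche factors. Lists were also given for 2 empty-vector cultures, number 1 after 12 months and number 3 after 14 months, each then kept in full medium with Wnt3a, R-spondin, Noggin and EGF for 3 weeks. These 2 groups differed at once in oncogene, medium and time in culture, whose effects cannot be told apart. Another 5 empty-vector cultures, of 2 or 5 months, had no rows in the table and were not analysed here. The assay was exome sequencing of genomic DNA, so neither expression of the cadherins nor the identity of the cells was measured.

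Cadherins are calcium-dependent adhesion proteins whose extracellular part is built from repeated cadherin domains. Classical cadherins hold epithelial cells together and bind beta-catenin on the inside of the membrane. Protocadherins and the giant Fat cadherins share the repeats but not the catenin-binding tail. In colon epithelium, cadherins of several of these classes lie at cell borders, and in human colorectal tumours PCDH10 is known for promoter methylation and FAT4 for mutation.

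Pcdh10 is a non-clustered protocadherin (chromosome 3, 45378398 to 45434579, plus strand, GRCm38), known from mouse brain for homophilic adhesion and axon growth. BrafV600E culture 1 carried G45380245T and the 14-month empty-vector culture carried A45380310C. In these names the base of the reference comes before the position and the base called in the culture after it. On the plus strand these were a G-to-T change in BrafV600E culture 1 and an A-to-C change in the 14-month culture. The positions lay 1847 bp and 1912 bp after the annotated start of the gene, at 3.29% and 3.40% of a span of 56182 bp. Both calls thus fell in the first stretch of the gene, whose first coding exon is known to be large and to encode the cadherin repeats. Exons and codons were not assigned, because no exon annotation was used here.

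The 2 Pcdh10 calls were separate entries in the table, since neither position was listed in the other culture. Their distance of 65 bp was shorter than the read length of 100 bases that the labels give for exome libraries. Whether either base was present below the calling threshold in the other culture cannot be read from the table, which gives no read depth and no share of mutant reads. No other call of a BrafV600E culture lay within 100 bp of a call of a long-term empty-vector culture. The next closest calls of the 2 groups were 42845 bp apart, in the olfactory receptor genes Olfr153 and Olfr1129, which are named here after their values were seen. Over all 161 calls with a call of another culture on their chromosome, the median distance to the nearest such call was 4019106 bp. Only 3 genes were listed in 2 or more cultures, so most of these distances join different genes. Pcdh10 was picked with its 2 calls known, so its distance was not tested against them. Including calls within a group, 5 calls had a neighbour from another culture within 100 bp, namely these 2 in Pcdh10 and 3 in Ctnnb1.

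For Pcdh10, the authors gave a p-value of 0.0074 to the call of BrafV600E culture 1 and of 0.000673 to the call of the 14-month culture. Both calls lay below the median support of their lists, the call of BrafV600E culture 1 near the bottom. In BrafV600E culture 1 the Pcdh10 call ranked 28 of 31 by p-value, with a -log10 p of 2.13 against a list median of 7.42. In the 14-month culture the Pcdh10 call ranked 26 of 40, with a -log10 p of 3.17 against a list median of 4.08. The test behind these p-values is not given in the sources used here, so they serve only to rank calls within a list.

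Pcdh10 was 1 of 2 genes listed in both groups. The other was Dgkb, a diacylglycerol kinase, listed as a frameshift in BrafV600E culture 3, with a -log10 of the authors' p-value of 9.12. The 14-month culture had a stop-gain in Dgkb, at 8.31 on the same scale. The Dgkb positions were 491159 bp apart. Both genes thus shared the 14-month culture, while the BrafV600E culture differed between them. The Dgkb calls fell in cultures numbered 3 in both groups, and the Pcdh10 calls in BrafV600E culture 1 and empty-vector culture 3.

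Pcdhga1 is the first gene of the gamma protocadherin cluster (chromosome 18, 37661775 to 37841870, GRCm38), whose members are known for the cell-surface identity of neurons. The 14-month culture carried C37663584A in Pcdhga1, and the other 4 cultures had no listed Pcdhga1 mutation. With an authors' p of 2.03e-28, it was the best supported of the 40 calls in that culture. Its -log10 p of 27.7 stood above 22.8 for Olfr1129, the second call of that list. Support in this culture therefore ran from the top of the list for Pcdhga1 to below the median for Pcdh10.

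**Figure D1:**
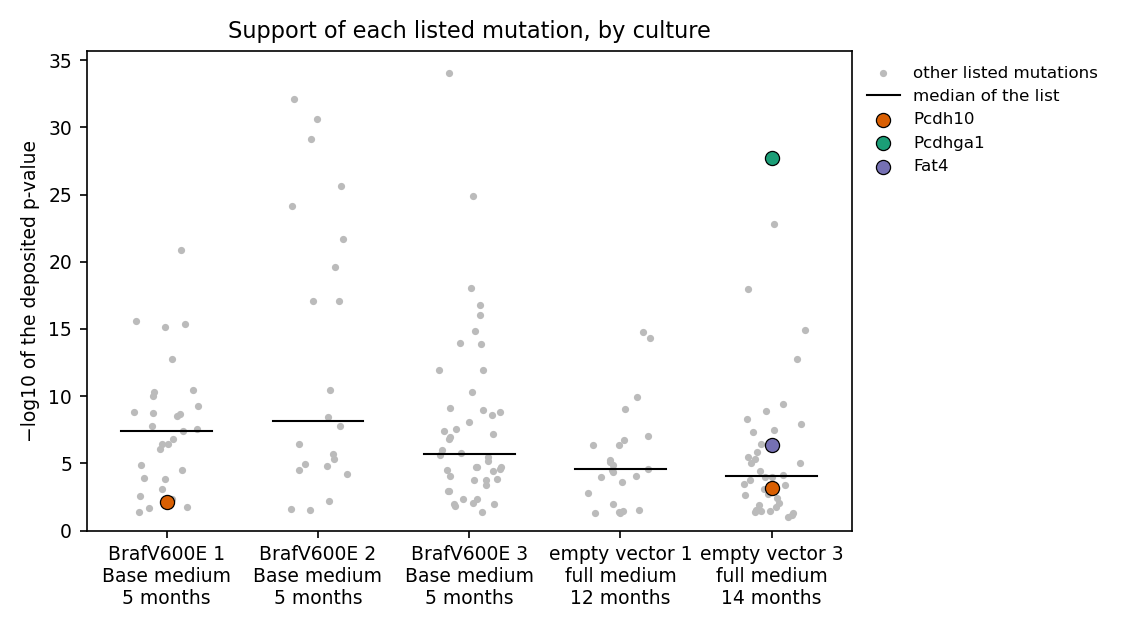
Each point is 1 listed mutation, by culture on the horizontal axis and by the -log10 of the authors' p-value on the vertical axis. Black lines are list medians and coloured points are the 3 cadherin genes. Pcdhga1 (27.7) tops the 14-month list, whereas Pcdh10 lies below the median of its list in both cultures (2.13 in BrafV600E culture 1, and 3.17 after 14 months of empty-vector culture).

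Genes of the gamma cluster are built from a variable exon of their own, which encodes the cadherin repeats, joined to constant exons that all of them share. In RefSeq, 21 gamma protocadherin genes were annotated, and all 21 spans ended within 10 bp of the Pcdhga1 end. The starts were staggered, and the Pcdhga1 span of 180096 bp took in those of its neighbours, to within 10 bp at the common end. The listed position lay 1809 bp after the start of Pcdhga1, at 1.0% of its span, and 5343 bp before the start of Pcdhga2. It was thus held by the span of 1 of the 21 gamma genes, outside the part that these genes share. The longer spans of 3 further annotated genes, Gm37013, Gm38666 and Gm38667, start upstream and also covered it. The variable exons of such clusters resemble each other in sequence. The position's unique mapping was not tested, because no genome sequence was used.

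**Figure D2:**
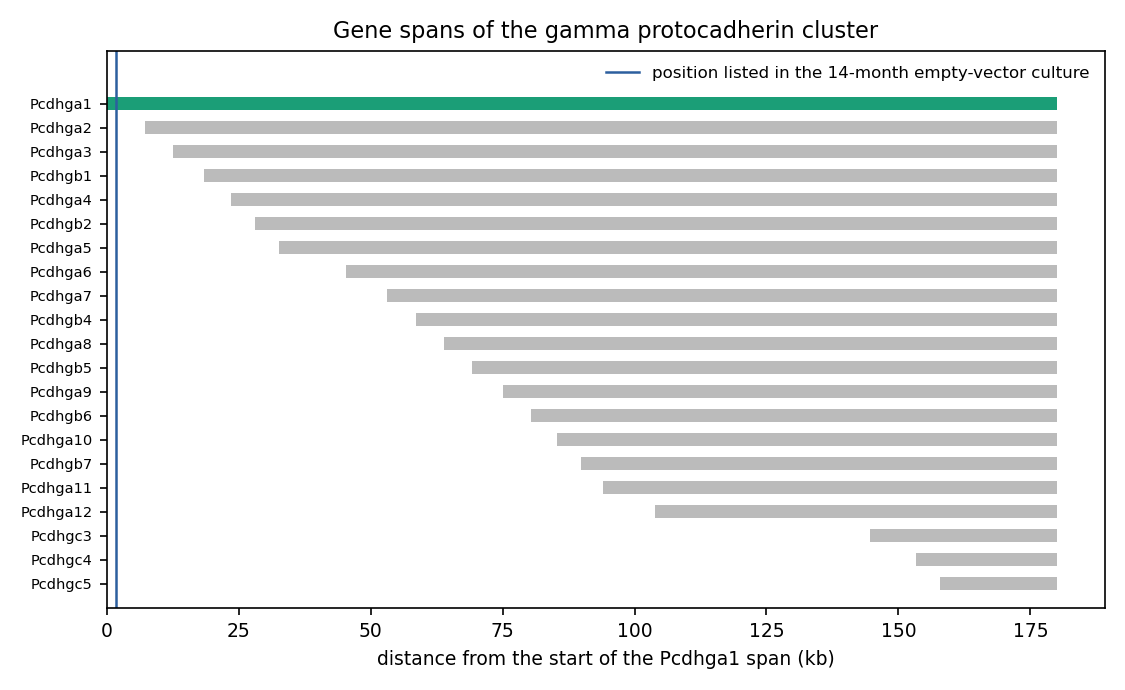
Each bar is the RefSeq span of 1 gamma protocadherin gene, in kb from the start of Pcdhga1, and the vertical line is the position listed in the 14-month empty-vector culture. The line crosses the Pcdhga1 bar and lies before the start of the other 20 genes shown, all of which end within 10 bp of the Pcdhga1 end.

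Fat4 encodes a giant atypical cadherin that binds Dchs1 on neighbouring cells and is known in mice for planar cell polarity and tubule growth (chromosome 3, 38884667 to 39011992, plus strand, GRCm38). The 14-month culture carried A39000150G, and none of the other 4 cultures had a listed Fat4 mutation. The authors' p of 4.06e-07 ranked 13 of 40 in that list, and its -log10 value of 6.39 lay above the list median of 4.08. The position was 115483 bp into a span of 127326 bp, at 90.7% of it and 11842 bp before the end. Unlike the calls in both protocadherins, it therefore lay near the 3′ end of the gene. No cadherin repeat was assigned to it.

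Fat4 and Pcdh10 lie on the same chromosome, and their positions in the 14-month culture were 6380160 bp apart. No other call of that culture lay between them. The nearest listed mutation outside the 3 genes was 53386605 bp from the Fat4 position, in Sprr2h, a cornified envelope gene, in BrafV600E culture 2. The 14-month list had 3 calls on chromosome 3, of which these were 2, and all lists together had 7. Near Pcdhga1, the closest listed call was in Arap3, which encodes a GTPase-activating protein, in the 12-month culture, at a distance of 311083 bp and with an authors' p of 0.0483.

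**Figure D3:**
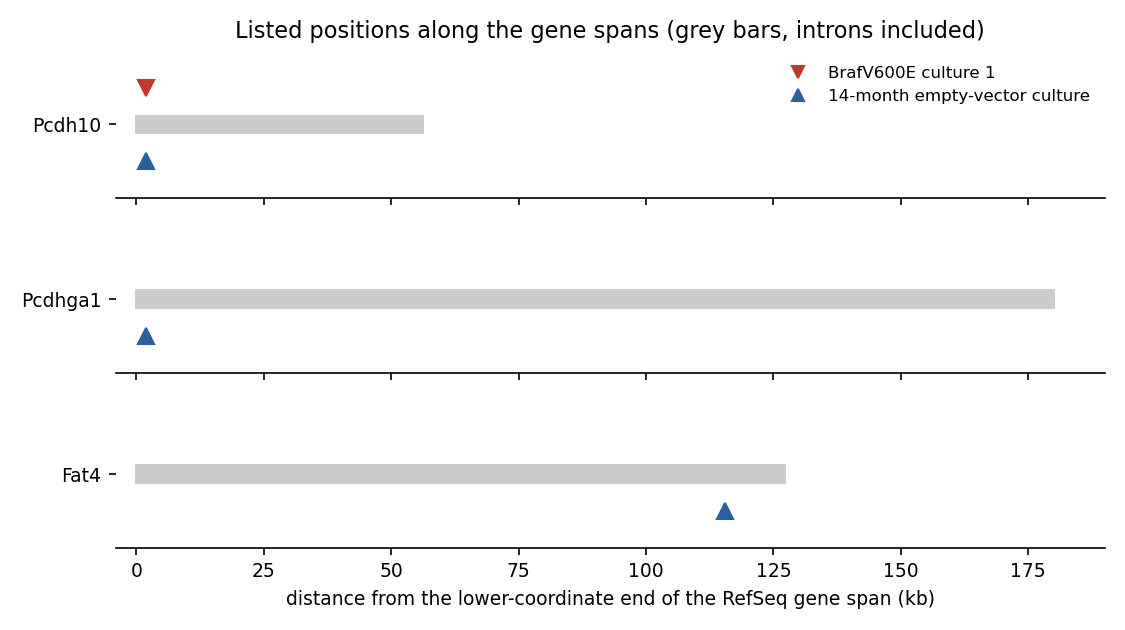
Grey bars are RefSeq gene spans, introns included, in kb from their lower-coordinate end. Downward triangles mark BrafV600E culture 1 and upward triangles the 14-month empty-vector culture. The Pcdh10 and Pcdhga1 calls lie within 2 kb of the start of the spans, and the Fat4 call lies at 90.7% of its span.

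Counted by culture, BrafV600E culture 1 had 1 mutation in the 3 genes among 31 listed (3.23%, exact 95% interval 0.0816 to 16.7%). BrafV600E cultures 2 and 3 had 0 of 22 and 0 of 46, with upper bounds of the exact 95% interval of 15.4% and 7.71%. The 14-month empty-vector culture had 3 of 40 (7.5%, exact 95% interval 1.57 to 20.4%), and the 12-month culture had 0 of 24, with an upper bound of 14.2%. Set side by side by culture number, number 1 had 1 call in the BrafV600E culture and 0 in the 12-month culture, and number 3 had 0 in the BrafV600E culture and 3 in the 14-month culture. In the deposited row names, the 12-month and 14-month empty-vector cultures carry the same BRAF number as the BrafV600E cultures 1 and 3. No label says whether a shared number means the same mouse or the same starting organoids. The intervals of all 5 cultures overlapped, but with 0 to 3 calls per culture this overlap does not compare the cultures. The intervals cover counting error only, and since the genes were picked from these lists the shares have no test.

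The base changes of the 4 calls fell into 3 classes, named from the pyrimidine of the base pair. Pcdh10 in BrafV600E culture 1 was a C-to-A change, the class of 18 of the 30 substitutions in that culture (60.0%). In the 14-month culture, the Pcdhga1 call was C-to-A as well, a class that held 10 of 38 substitutions there (26.3%). The Fat4 call was T-to-C, like 6 of 38 (15.8%), and the Pcdh10 call was T-to-G, like 5 of 38 (13.2%). The 2 Pcdh10 calls thus belonged to different classes, and the 3 calls of the 14-month culture had no class in common.

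Across the cadherin superfamily, a list of 120 genes of which 119 matched RefSeq, the listed genes were Pcdh10, Pcdhga1 and Fat4, and the remaining 116 had no listed mutation. The 3 listed genes were 2.52% of the superfamily, beside 0.708% of all 21900 protein-coding genes, a percentage inflated by the choice of genes with listed mutations. By group, 1 superfamily gene was listed in the BrafV600E cultures, where 0.434% of all genes were listed. In the long-term empty-vector cultures, where 0.283% of all genes were listed, all 3 were, each of them in the 14-month culture. The 12-month culture had none. The choice of genes inflates these counts by group as well. No mutation was listed in the 23 Cdh genes, which include E-cadherin (Cdh1), the main cadherin of colon epithelium, or in the 9 desmosomal cadherins. Nor was any listed in Fat1, Fat2 or Fat3, in the other 11 non-clustered protocadherins, or in the other 56 clustered ones. A count of 0 does not show that these genes were unmutated, since the depth over them is unknown.

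The 3 genes span more of the genome than most. Pcdhga1 was longer than 94.8% of protein-coding genes, Fat4 (127326 bp) than 91.8% and Pcdh10 (56182 bp) than 79.7%, introns included. The median span was 66898 bp for the superfamily, 24326 bp for the 155 listed genes that matched RefSeq and 17146 bp for all protein-coding genes. Of the 155 listed genes, 23 had a longer span than Pcdhga1, 27 than Fat4 and 57 than Pcdh10. Against the 4 mutations observed, the superfamily's share of genomic span corresponded to 2.76 of 163 mutations and its share of gene number to 0.886. The first value counts the overlapping spans of clustered genes many times, and merging them gave 2.08. Spans include introns, which exome capture does not target, and the part of gene size or structure in these calls was not tested.

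**Figure D4:**
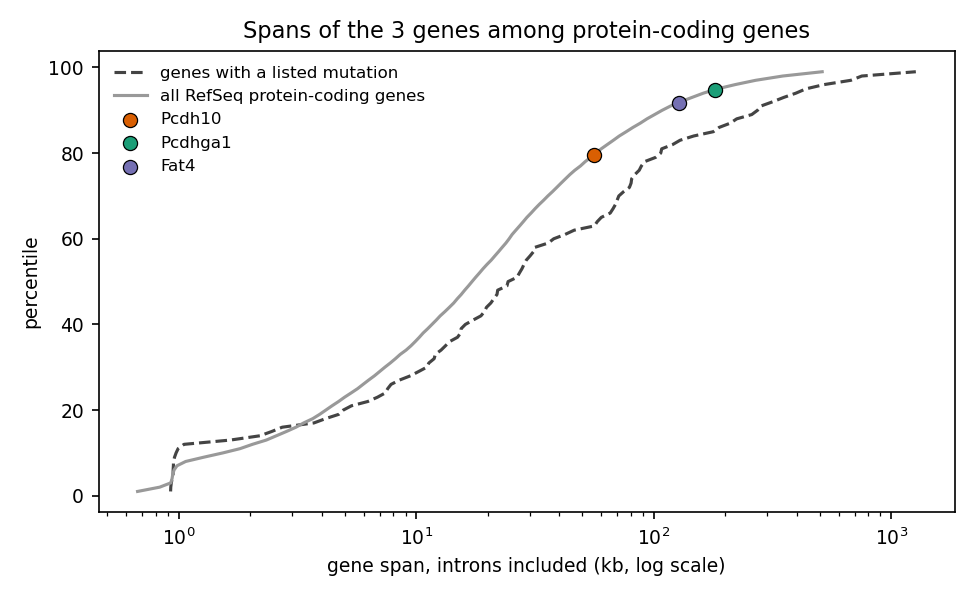
Gene span in kb on a log axis against its percentile, for genes with a listed mutation (dashed line) and for all RefSeq protein-coding genes (grey line), with the 3 cadherin genes placed on the grey line. Pcdhga1, Fat4 and Pcdh10 lie at percentiles 94.8, 91.8 and 79.7 of all genes.

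Among the partners of cadherins, BrafV600E cultures 1 and 3 had listed mutations, and neither the 12-month nor the 14-month culture did. Of 20 genes for catenins, plakoglobin, plakophilins, nectins and other junction proteins, 1 was listed (5.0%, beside 0.708% of all genes), with 3 missense mutations. The list's share of gene number corresponded to 0.149 mutations and its share of span to 0.737. This list too was drawn up with earlier results of these data known, so these values are a description and were not tested. The listed gene was Ctnnb1, which encodes beta-catenin, both the cytoplasmic partner of classical cadherins and an effector of Wnt signalling. BrafV600E culture 1, which also held the Pcdh10 call, carried C120950624A and C120950630A (chromosome 9), and BrafV600E culture 3 carried C120950618T. Among 34 genes of Fat4-Dchs1 signalling, the Hippo kinases and planar cell polarity, none was listed (0 of 163 mutations, exact 95% interval 0 to 2.24%). By gene number that list corresponded to 0.253 mutations and by span to 0.465, both below 1. The count of 0 was not tested against these values. None of the 4 cadherin mutations had the authors' mark for COSMIC cancer genes, which 7 of the 163 mutations carried.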

How the data were processed

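Exome libraries (TruSeq, paired ends, HiSeq) were made from genomic DNA, per the labels' protocols. The builds mm10 and GRCm38 are named in the submitters' processing notes. For the aligner, variant caller, filters, comparator and test, details were not given in the sources used here. One table, deposited by the authors, lists mutations with a p-value each, and 5 of the 10 cultures have rows in it. Read depth is unknown.

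All calls in Pcdh10, Pcdhga1 and Fat4 were taken. Groups came from the sample titles and the rows' culture names. Symbols were matched to RefSeq genes (GRCm38.p6), for 155 of 156 listed genes. Gene spans include introns. Counts, ranks, distances and exact Clopper-Pearson 95% intervals were computed with Python 3.11.15, pandas 2.3.3 and scipy 1.17.1, and the functions were tested on simulated data. The design text names both long-term cultures as biological replicates, and no label says whether the BrafV600E cultures came from separate mice.

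The genes and lists were chosen with earlier results of these data known. Genes named are the 3 members, listed genes of the cadherin superfamily, partner and Fat4 pathway lists, their nearest listed neighbours and genes listed in both groups. The planned protein lengths, exons, cadherin repeats and sequences were not used here, so genomic span replaced protein length. Filters on p-value and call type, left-out cultures and narrower lists were tried.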

Additional observations from a re-analysis of the deposited data

How the results depend on the processing

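The BrafV600E count of 1 mutation in the 3 genes became 0 at an authors' p of 0.001 or below and at 1e-05 or below, because the Pcdh10 call of culture 1 has a p of 0.0074. The presence in both groups thus depends on that threshold. At 1e-05 the long-term empty-vector count was 2 in place of 3, without Pcdh10. Leaving out 1 culture at a time gave counts of 0 to 1 in the BrafV600E cultures, with 0 without culture 1, and 0 to 3 in the long-term cultures, with 0 without the 14-month culture. A p of at most 0.05, substitutions only, and 1 call per gene and culture changed neither count, and could not have done so. Every call in the 3 genes was a substitution with a p of 0.0074 or less. No 2 of them shared both gene and culture. The superfamily's share of listed mutations, 2.45%, ranged from 2.25 to 2.58% under all of the filters above. With 1 culture left out it ranged from 0.813 to 3.42%, the lowest without the 14-month culture. Restricting the list to protocadherin and Fat genes, or dropping Clstn, Cdhr and Ret genes, left this share at 2.45%. Neither step could change it, because every superfamily call lay in the 3 genes, which both narrower lists keep. The number by list size moved with the measure (2.76 by span, 0.886 by gene number, 2.08 by merged span, the last chosen after seeing the data). The planned measure by protein residues was not run. No paired analysis was possible because the counts come from no test, and the 2 shared culture numbers, 1 and 3, are given only as values side by side. Few calls and unknown depth limit all of these values.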
